A study of Mus musculus with 6 samples.

Results

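This account follows 40 mouse genes of the blood and lymphatic vessel lining and of vascular endothelial growth factor (VEGF) signalling through pancreatic tumours and normal pancreas. The genes were given as a list of symbols and were found among the 27179 genes counted in each library. The symbols of 39 genes had a row in the authors' comparison tables, and the last, Apln, was located by its gene ID through RefSeq. The 3 groups were sequenced as bulk tissue, each with n = 2 libraries. H7 tumours grew from PANC02-H7 cells, a metastatic derivative of a mouse pancreatic adenocarcinoma line. UNKC tumours grew from UN-KC-6141 cells, a mouse pancreatic carcinoma line. Both lines were placed surgically into the pancreas of C57BL/6 mice, the tumours were removed 20 days later, and no mouse received a treatment. The third group was whole normal pancreas of C57BL/6 mice. Each tumour type rests on 1 cell line, and the labels give no sex, age, litter or sequencing batch for the mice. They do not say whether replicates were separate animals, so the p-values measure the spread between these libraries, which may be technical.

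VEGF-A is the main growth signal of blood vessels and acts through the receptor KDR (VEGFR2), while FLT1 (VEGFR1) binds VEGF-A, VEGF-B and placental growth factor and is often described as a decoy. VEGF-C acts through FLT4 (VEGFR3), chiefly on lymphatic endothelium, and the neuropilins NRP1 and NRP2 are co-receptors that also serve semaphorins. A parallel system matures vessels: angiopoietin 1 activates the receptor TEK (TIE2), angiopoietin 2 mostly antagonises it, TIE1 modulates it, and the phosphatase PTPRB (VE-PTP) restrains it. The pancreas is densely vascularised, with a particularly rich capillary bed in the islets, whereas pancreatic carcinomas are known as poorly perfused tumours.

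The libraries held 33332516 and 36307030 (H7), 40507546 and 38728423 (UNKC) and 12077320 and 8204225 (normal) reads counted in genes. Ribosomal RNA took 85.4% and 85.0% of the normal libraries and 20.1% to 27.8% of the tumour libraries. Values are CPM, read counts relative to the library size scaled by TMM, the edgeR factor that assumes most genes do not change. On that scale 1 read was worth 0.463 and 0.477 CPM in the normal libraries and 0.0111 to 0.0145 CPM in the tumours, so low genes are measured far less precisely in normal pancreas. Both mates of a pair were counted, and small counts are therefore less independent than they look. Acinar markers summed to 13251 and 12733 CPM in normal pancreas and to 4.18 to 29.3 CPM in the tumours. The libraries of tumour replicate 2 stood apart in 9 skeletal muscle markers, which summed to 616 CPM (H7) and 2188 CPM (UNKC) against 10.6 and 1.64 CPM in replicate 1 and 7.41 and 2.86 CPM in normal pancreas. Across genes the log2 CPM of replicates correlated at r = 0.967 for H7, 0.949 for UNKC tumours and only 0.801 for normal pancreas. In bulk tissue a lower level can come from fewer endothelial cells or from less RNA per cell, which cannot be told apart.

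The DNA before the starts of the VEGF receptor genes is shown because Flt1 and Flt4 differed between the tumours and Kdr did not pass that test in edgeR, beside that of Vegfc, which differed most between the tumours of the 4 VEGF ligands in the set. RefSeq promoter sequences (GRCm38.p6, 250 bases before to 50 after an annotated start) were found for 22 of the 40 genes. They were searched on both strands for GGAAG, a stretch that holds GGAA, the core bound by ETS factors, the family of the endothelial regulator ERG. GGAA followed by another base was not counted. In the lines that follow, capitals mark GGAAG or its reverse complement CTTCC, each line runs 5′ to 3′ on the gene's own strand, and the Flt1 and Kdr windows lie inside the gene span because RefSeq also lists a start farther upstream. The windows are chr5:147725962-147726261 on the minus strand for Flt1, chr5:75978406-75978705 on the minus strand for Kdr, chr11:49609429-49609728 on the plus strand for Flt4 and chr8:54077282-54077581 on the plus strand for Vegfc.
Flt1: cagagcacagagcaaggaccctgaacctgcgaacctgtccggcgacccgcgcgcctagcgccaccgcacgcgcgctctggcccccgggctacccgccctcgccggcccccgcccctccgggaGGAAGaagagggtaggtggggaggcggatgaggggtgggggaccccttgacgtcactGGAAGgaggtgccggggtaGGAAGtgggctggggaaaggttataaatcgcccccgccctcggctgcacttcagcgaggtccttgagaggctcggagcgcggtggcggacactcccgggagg
Kdr: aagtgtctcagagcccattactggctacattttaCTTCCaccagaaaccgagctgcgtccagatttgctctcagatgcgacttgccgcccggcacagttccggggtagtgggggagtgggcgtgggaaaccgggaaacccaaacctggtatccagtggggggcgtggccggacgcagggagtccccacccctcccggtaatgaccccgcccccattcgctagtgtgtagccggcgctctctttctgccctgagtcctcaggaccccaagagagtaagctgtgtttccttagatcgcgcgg
Flt4: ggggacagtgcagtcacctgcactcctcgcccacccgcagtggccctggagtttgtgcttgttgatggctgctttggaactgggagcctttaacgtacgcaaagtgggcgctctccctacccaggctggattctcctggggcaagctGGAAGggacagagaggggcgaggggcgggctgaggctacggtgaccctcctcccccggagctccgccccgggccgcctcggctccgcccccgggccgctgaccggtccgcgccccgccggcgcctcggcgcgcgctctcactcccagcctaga
Vegfc: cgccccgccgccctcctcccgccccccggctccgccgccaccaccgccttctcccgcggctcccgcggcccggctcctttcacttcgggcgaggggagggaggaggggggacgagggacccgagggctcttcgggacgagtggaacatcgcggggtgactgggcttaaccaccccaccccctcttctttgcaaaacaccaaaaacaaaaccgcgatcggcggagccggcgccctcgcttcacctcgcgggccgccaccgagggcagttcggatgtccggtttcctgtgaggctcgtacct
The Flt1 window held 3 matches to GGAAG, those of Kdr and Flt4 held 1 each, and that of Vegfc held 0. Over the 22 genes, 16 windows (72.7%) held GGAAG on either strand, and 71.4% of 32851 mouse promoter windows of the same length did. Tie1 had the most, with 7. The GC box GGGCGG stood in 15 of 22 windows (68.2%) against 35.7% of all windows, the hypoxia response core ACGTG in 1 (4.55%, Clec14a) against 19.6%, and TATAAA in 2 (9.09%, Flt1 and Prox1) against 13.6%. These are matches of letters, all searched on both strands, and a GC box and a GGAAG match can share bases where they adjoin. Each of the 22 genes gave 1 window, the farthest upstream of those available. The windows of all genes were not reduced to 1 per gene, so the shares compare sets chosen in different ways.

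All 40 genes passed the filter on low counts. Compared with normal pancreas, H7 tumours had lower levels of most blood vessel genes that passed the test, while UNKC tumours had changes in both directions with higher Flt1 and Flt4. In H7 tumours 4 genes were higher (Nrp1, Nrp2, Angpt1, Apln) and 17 lower, where 29.6% of all 16306 tested genes were higher and 21.9% lower. The median log2 fold change of the 40 genes was -0.86, against 0.34 over all tested genes. In UNKC tumours 6 genes were higher (Flt1, Flt4, Nrp1, Nrp2, Angpt2, Vegfc) and 7 lower (Egfl7, Cd34, Nos3, Angpt1, Prox1, Vegfa, Pgf), with 29.1% of all genes higher and 19.3% lower, and the median was 0.20 against 0.42. Both tumours were compared with the same normal libraries, so these results are not independent of each other. Directly between the tumours, 3 genes were higher in H7 (Nrp1, Nrp2, Angpt1) and 10 lower, where 7.14% of all genes were higher and 11.1% lower, and the median was -0.92 against -0.02.

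Directions against normal pancreas depended on the scaling, whereas those of the 13 called differences between the tumours did not under the scalings run. Scaling to total counts, most of which were ribosomal RNA in the normal libraries, moved the median of all genes by 3.27 (H7) and 3.36 (UNKC) on the log2 scale. It then called 30 of the 40 genes higher and 1 lower in H7, with 77.9% of all genes higher and 3.21% lower, and 37 higher and 0 lower in UNKC, with 82.8% higher and 1.91% lower. That scaling turned the sign of 14 of the 17 falls in H7 tumours (not Sox17, Prox1 and Lyve1) and 7 of 7 in UNKC tumours, but 0 of 10 between the tumours. Scaling to totals without ribosomal RNA and Lars2, an RNA abundant in the normal libraries, gave 12 genes higher and 2 lower in UNKC, with 40.8% of all genes higher and 12.3% lower, and turned no called gene. In UNKC it ended the calls of Prox1, Cd34, Vegfa, Egfl7 and Nos3, and in H7 those of Pecam1, Sox7, Eng, Tie1 and Vwf. Each fall against normal pancreas that follows is therefore relative to the bulk of other genes on the TMM scale, and a value called reversed or higher under total-count scaling was positive there whether or not it passed. Without both tumour libraries that held skeletal muscle markers, each tumour kept 1 library and the fit had 1 residual degree of freedom. No gene, member or not, passed there in any comparison with edgeR, so the calls could not be checked in that way. The median log2 fold change of the 40 genes was then -1.07 in H7 against normal pancreas (0.29 over all genes). In UNKC tumours it was -0.02 (0.35 over all genes).

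**Figure D1:**
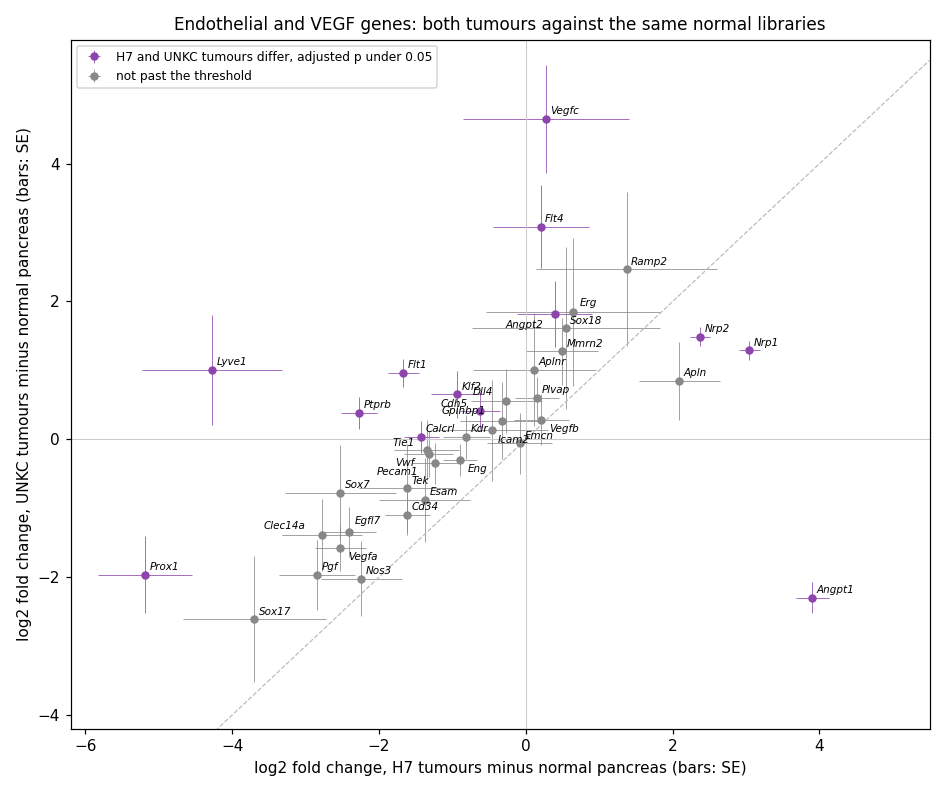
Log2 fold change of each of the 40 genes in H7 tumours (horizontal) and UNKC tumours (vertical) against the same 2 normal libraries on the TMM scale, with standard errors as bars and a dashed line where both are equal; purple points are the 13 genes that differed between the tumours by the direct test. Angpt1 lies at 3.90 and -2.30 and Nrp1 and Nrp2 lie below the line, while the other 10 purple genes, among them Flt1, Flt4 and Vegfc, lie above it; total-count scaling shifts the bulk of points up and right and turns most falls against normal pancreas.

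Among the ligands, Vegfa and Pgf were lower in both tumours than in normal pancreas on the TMM scale, and Vegfc was highest in the UNKC libraries. Vegfa (chr17:46016993-46032377), the principal ligand of KDR, measured 359 and 259 CPM in normal pancreas, 114 and 92.7 CPM in UNKC and 70.5 and 36.8 CPM in H7 tumours. The groups did not overlap, and normal pancreas was the highest. The log2 fold change was -2.53 (SE 0.35, adjusted p = 0.00189) in H7 and -1.58 (SE 0.34, adjusted p = 0.0104) in UNKC tumours, both reversed by total-count scaling. Between the tumours the log2 difference of -0.95 (SE 0.33) did not pass (adjusted p = 0.108). The UNKC call was lost without normal replicate 1 or UNKC replicate 2 (adjusted p = 0.0501 to 0.0512). Islet markers, from another vascular tissue of the pancreas, summed to 624 and 284 CPM in normal pancreas, 10.8 and 64.3 CPM in H7 and 44.8 and 14.3 CPM in UNKC tumours. Of the 8 listed, 6 were lower in each tumour and none was at 0 in any library, and their part in the Vegfa result was not tested.

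Vegfc (chr8:54077532-54186454), the lymphatic growth factor, measured 12.3 and 11.4 CPM in UNKC tumours, 0.492 and 0.642 CPM in H7 tumours and 0.926 and 0 CPM in normal pancreas. Both UNKC libraries were far above the other 4, while H7 and normal pancreas overlapped. It was 20.8-fold lower in H7 than in UNKC tumours (log2 -4.38, SE 0.46, adjusted p = 0.00144). The difference between UNKC tumours and normal pancreas passed the test (adjusted p = 0.00231) but rests on 1 normal read pair. The ratio of the counts was 25.6, log2 4.68 with a 95% counting interval of 2.20 to 9.98 (exact binomial). The fitted log2 value was 3.71 without normal replicate 2 (adjusted p = 0.00213). Without normal replicate 1 the normal group had no Vegfc read and the gene also passed in H7 (adjusted p = 0.0418).

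Pgf, placental growth factor, a ligand of FLT1 only, measured 8.33 and 27.7 CPM in normal pancreas, 4.51 and 4.66 CPM in UNKC and 2.68 and 2.32 CPM in H7 tumours. The groups did not overlap, although the normal libraries lay far apart. The log2 fold change was -2.84 (SE 0.52, adjusted p = 0.00526) in H7 and -1.97 (SE 0.50, adjusted p = 0.0199) in UNKC tumours, higher in both under total-count scaling. Leaving out either normal library moved the H7 value to between -3.44 and -1.70 (adjusted p = 0.000672 to 0.0048) and the UNKC value to between -2.57 and -0.83 (adjusted p = 0.000958 to 0.0429). The UNKC call was lost without either H7 or either UNKC library (adjusted p = 0.0521 to 0.0889), and a difference between the tumours was gained without either normal library (0.0182 to 0.0249). Vegfb, a FLT1 ligand linked to fatty acid uptake, ranged from 2.78 to 5.25 CPM over the 6 libraries and passed no test. Per kilobase of gene length, the level of Vegfa was the highest of these 4 ligands in every group, at 74.0 CPM per kilobase in normal pancreas, 24.8 in UNKC and 12.9 in H7 tumours. Second was Pgf in normal pancreas (11.47), Vegfc in UNKC (6.30) and Vegfb in H7 tumours (3.62). Vegfd, a ligand outside the set that is described below with the arterial list, had no gene length here and was not ranked.

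Of the 3 VEGF receptors, Flt1 and Flt4 were higher in UNKC tumours than in either other group, Flt1 was lower in H7 than in normal tissue on the TMM scale, and Kdr passed no test. Flt1 (chr5:147561604-147726438), whose window with 3 GGAAG matches is printed above, measured 73.1 and 54.3 CPM in UNKC tumours, 28.7 and 36.7 CPM in normal pancreas and 9.93 and 10.6 CPM in H7 tumours. No groups overlapped. It was 6.19-fold lower in H7 than in UNKC tumours (log2 -2.63, SE 0.21, adjusted p = 0.00136). The log2 fold change against normal pancreas was -1.67 (SE 0.21, adjusted p = 0.00138) in H7, which total-count scaling reversed, and 0.96 (SE 0.21, adjusted p = 0.0107) in UNKC tumours. The UNKC call was lost without UNKC replicate 1 (adjusted p = 0.0688) and with upper-quartile scaling.

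Flt4 (chr11:49609679-49652739), the receptor of VEGF-C, measured 16.5 and 31.2 CPM in UNKC, 2.85 and 3.61 CPM in H7 tumours and 4.63 and 0.954 CPM in normal pancreas. Both UNKC libraries were above all others, and H7 and normal pancreas overlapped. The log2 fold change of UNKC tumours over normal pancreas was 3.09 (SE 0.61, adjusted p = 0.00754). It ranged from 2.40 to 4.66 when either normal library was left out (adjusted p = 0.00744 to 0.0231). Flt4 was 7.39-fold lower in H7 than in UNKC tumours (log2 -2.88, SE 0.46, adjusted p = 0.0106), a call lost without either H7 library (adjusted p = 0.0878 to 0.146).

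Kdr (chr5:75932827-75979072), the main signalling receptor for VEGF-A, measured 19.9 and 22.9 CPM in normal pancreas, 16.8 and 27.0 CPM in UNKC and 9.80 and 14.6 CPM in H7 tumours. UNKC and normal pancreas overlapped, and both H7 libraries were below the rest. The differences did not pass in H7 against normal pancreas (log2 -0.81, SE 0.32, adjusted p = 0.0785, positive under total-count scaling) or against UNKC tumours (log2 -0.85, SE 0.30, adjusted p = 0.107). In UNKC tumours against normal pancreas the adjusted p was 0.933. Kdr passed as lower in H7 tumours against normal pancreas with DESeq2 size factors, with upper-quartile factors, with the DESeq2 test, with the 4 libraries compared alone and with the authors' fragment counts (adjusted p = 0.0216 to 0.0445). Kdr was singled out after its values were seen, as the receptor the others are read against.

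The co-receptors Nrp1 and Nrp2 were highest in H7 tumours. Nrp1 (chr8:128358591-128505476) measured 382 and 385 CPM in H7, 107 and 120.3 CPM in UNKC tumours and 49.99 and 42.9 CPM in normal pancreas. Nrp2 (chr1:62703317-62818692) measured 137 and 150.0 CPM in H7, 73.8 and 81.9 CPM in UNKC tumours and 26.8 and 28.6 CPM in normal pancreas. In both genes H7 was highest, UNKC intermediate and normal pancreas lowest, with no overlap. Nrp1 was 8.26-fold higher in H7 (log2 3.05, SE 0.15, adjusted p = 0.000136) and 2.45-fold higher in UNKC tumours (log2 1.29, SE 0.14, adjusted p = 0.000839) than in normal pancreas. For Nrp2 the folds were 5.18 (log2 2.37, SE 0.14, adjusted p = 0.00016) and 2.81 (log2 1.49, SE 0.13, adjusted p = 0.00047). Between the tumours Nrp1 was 3.37-fold higher in H7 (log2 1.75, SE 0.14, adjusted p = 0.00129) and Nrp2 1.85-fold (log2 0.88, SE 0.13, adjusted p = 0.00696). The Nrp2 difference between tumours was lost without H7 replicate 1, H7 replicate 2 or UNKC replicate 1 (adjusted p = 0.062 to 0.0745) and under total-count scaling. Neuropilins are not restricted to endothelium and are also made by macrophages, fibroblasts and carcinoma cells. The 10 macrophage markers summed to 620 and 590 CPM in H7, 321 and 310 CPM in UNKC tumours and 82.4 and 127 CPM in normal pancreas. Of these 10 markers 9 were higher and 1 lower in H7 and 7 higher and 1 lower in UNKC tumours against normal pancreas, 3 were higher and 1 lower in H7 than in UNKC, and 2 were at 0 in normal replicate 1. Their part in the neuropilin results was not tested.

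**Figure D2:**
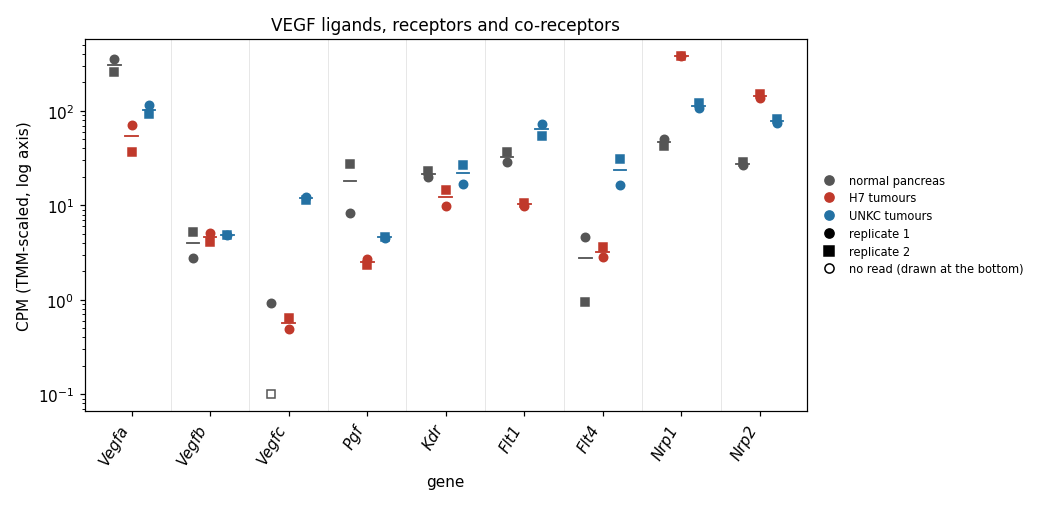
CPM on a log axis of the 4 VEGF ligands, 3 receptors and 2 co-receptors in each library, with circles for replicate 1, squares for replicate 2, a dash at each group mean and an open symbol at the bottom where no read was counted. Vegfc and Flt4 stand high in the UNKC libraries alone, Nrp1 and Nrp2 step down from H7 to UNKC to normal pancreas, and Vegfa steps down from normal pancreas to UNKC to H7 tumours, an order against normal pancreas that total-count scaling reverses.

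Angpt1 and Angpt2 differed between the tumours in opposite directions, and Angpt1 had the largest log2 difference of the 40 genes in the edgeR fit. Angpt1 (chr15:42424667-42676977), the agonist of TEK, measured 182 and 205 CPM in H7 tumours, 11.1 and 14.8 CPM in normal pancreas and 2.29 and 2.97 CPM in UNKC tumours. The groups did not overlap and lay on opposite sides of normal pancreas. It was 15.0-fold higher in H7 than in normal pancreas (log2 3.90, SE 0.22, adjusted p = 0.000158) and 73.4-fold higher than in UNKC tumours (log2 6.20, SE 0.23, adjusted p = 0.000223). In UNKC tumours it was 4.91-fold lower than in normal pancreas (log2 -2.30, SE 0.22, adjusted p = 0.000567), which total-count scaling turned to higher. Angpt2 (chr8:18690263-18741562), released by activated endothelium, measured 6.78 and 6.50 CPM in UNKC, 2.82 and 2.12 CPM in H7 tumours and 2.78 and 0.954 CPM in normal pancreas. The UNKC libraries were above the rest, and H7 and normal pancreas overlapped. Angpt2 was 3.53-fold higher in UNKC tumours than in normal pancreas (log2 1.82, SE 0.48, adjusted p = 0.0216) and 2.69-fold lower in H7 than in UNKC tumours (log2 -1.43, SE 0.31, adjusted p = 0.0278). The first call was lost without either UNKC library (adjusted p = 0.0573 to 0.0749) and with upper-quartile scaling, and its log2 value was 2.82 without normal replicate 1 (adjusted p = 0.00799). The second was lost without any 1 of the 4 tumour libraries (adjusted p = 0.0748 to 0.185). Angpt2 did not pass in UNKC tumours against normal pancreas in the authors' deposited table (log2 fold change 1.25, adjusted p = 0.0735).

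Within a library, where scaling between libraries has no part, Angpt2 over Angpt1 per gene length was 4.86 and 3.59 in UNKC tumours, 0.461 and 0.154 in normal pancreas and 0.0257 and 0.0171 in H7 tumours. The UNKC libraries alone held more Angpt2 than Angpt1. Angiopoietin 1 is a product of pericytes and fibroblasts rather than of endothelium. The 10 pericyte and smooth muscle markers summed to 401 and 391 CPM in H7, 102 and 356 CPM in UNKC tumours and 130 and 146 CPM in normal pancreas, with no marker at 0 in any library. Des, a filament gene that skeletal muscle also makes, gave 212 CPM of the sum of UNKC replicate 2 and 4.40 CPM of that of UNKC replicate 1. Without Des the sums were 400.0 and 368 CPM in H7, 97.2 and 144 CPM in UNKC tumours and 122 and 143 CPM in normal pancreas, so that both H7 libraries lay above the rest. Most of the H7 sums came from Pdgfrb (204 and 161 CPM) and Acta2 (156 and 153 CPM). Between the tumours these 2 of the 10 markers were higher in H7, and 3 were lower (Cspg4, Kcnj8 and Myh11). The part of these markers in the Angpt1 result was not tested.

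The phosphatase gene Ptprb (chr10:116275502-116389538) measured 69.6 and 89.2 CPM in UNKC tumours, 68.0 and 53.4 CPM in normal pancreas and 10.49 and 14.7 CPM in H7 tumours. Both H7 libraries lay far below the other 4. Ptprb was 6.30-fold lower in H7 than in UNKC tumours (log2 -2.66, SE 0.24, adjusted p = 0.00195) and 4.82-fold lower than in normal pancreas (log2 -2.27, SE 0.24, adjusted p = 0.000764, higher under total-count scaling). Tie1, the orphan partner of TEK, measured 10.2 and 16.7 CPM in normal pancreas, 9.66 and 14.4 CPM in UNKC and 3.59 and 6.91 CPM in H7 tumours. UNKC and normal pancreas overlapped and H7 was lowest. The fall in H7 against normal pancreas only just passed (log2 -1.35, SE 0.44, adjusted p = 0.0453) and total-count scaling reversed it. It was lost without H7 replicate 1, either normal or either UNKC library (adjusted p = 0.0515 to 0.229) and without the count filter. Tek itself ranged from 1.77 to 7.87 CPM and passed no test here (adjusted p = 0.0851 in H7 against normal pancreas). It passed as lower in H7 against normal pancreas without either UNKC library (adjusted p = 0.0345 to 0.0385), and with upper-quartile factors, the DESeq2 test, the 4 libraries compared alone and the authors' fragment counts (adjusted p = 0.0176 to 0.0466). Under total-count scaling Tek passed as higher in H7 than in normal pancreas (log2 1.70, adjusted p = 0.0424). The authors' deposited table also has Tek as lower in H7 tumours (log2 fold change -1.55, adjusted p = 0.00808).

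Both lymphatic genes of the set, Lyve1 and Prox1, were lowest in the H7 libraries. Lyve1 (chr7:110850607-110862953), a hyaluronan receptor of lymphatic endothelium that some tissue macrophages also carry, measured 0.232 and 0.436 CPM in H7, 6.00 and 20.3 CPM in UNKC tumours and 10.2 and 2.86 CPM in normal pancreas. UNKC and normal pancreas overlapped, and both H7 libraries were below all others. It was 38.9-fold lower in H7 than in UNKC tumours (log2 -5.28, SE 0.82, adjusted p = 0.0093), and the value ranged from -5.90 to -4.15 without either UNKC library (adjusted p = 0.0121 to 0.0122). That call was lost without either H7 library (adjusted p = 0.0745 to 0.122). Against normal pancreas Lyve1 was 19.3-fold lower in H7 tumours (log2 -4.27, SE 0.95, adjusted p = 0.0114), a call lost without H7 replicate 1 or normal replicate 1 (adjusted p = 0.0662 to 0.142) and under total-count scaling, with a value of -4.88 without normal replicate 2 (adjusted p = 0.0147).

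Prox1 (chr1:190118035-190170827), the transcription factor that sets lymphatic identity and that hepatic and pancreatic epithelium also uses, measured 28.7 and 9.07 CPM in normal pancreas, 3.46 and 6.23 CPM in UNKC and 0.492 and 0.539 CPM in H7 tumours. The groups did not overlap. Its log2 fold change was -5.19 (SE 0.64, adjusted p = 0.00124) in H7 against normal pancreas, the 1 fall that total-count scaling also called. Without normal replicate 1 that value was -4.10 (adjusted p = 0.00348). In UNKC tumours it was -1.97 (SE 0.56, adjusted p = 0.0288, reversed by total-count scaling), and the call was lost without UNKC replicate 1, normal replicate 1 or either H7 library (adjusted p = 0.0666 to 0.198) and with the 4 libraries compared alone. The acinar and islet sums given above were also highest in normal pancreas, and their part was not tested. Between the tumours Prox1 was 9.34-fold lower in H7 (log2 -3.22, SE 0.57, adjusted p = 0.0144), lost without either H7 library (adjusted p = 0.111 to 0.151).

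Lymphatic markers outside the 40 genes followed Lyve1 in part. Of 6 tested, 3 were higher in UNKC tumours than in normal pancreas (Pdpn, Mmrn1 and Reln) and 4 lower in H7 than in UNKC tumours (these and Stab2), where 29.1% and 11.1% of all genes were. Pdpn was lost without either H7 library, normal replicate 2 or UNKC replicate 2 (adjusted p = 0.0534 to 0.117), and with DESeq2 size factors, upper-quartile factors, the 4 libraries alone and fragment counts. Mmrn1 was lost without either normal library or UNKC replicate 2 (adjusted p = 0.134 to 0.165), and with DESeq2 size factors, upper-quartile factors, halved counts and fragment counts. Reln was lost without normal replicate 2 (adjusted p = 0.0522). Between the tumours Pdpn was lost without either H7 library (adjusted p = 0.0739 to 0.163), and Stab2 with halved counts and without any 1 library but UNKC replicate 2 (adjusted p = 0.0535 to 0.212). Mmrn1, a multimerin of lymphatic endothelium and platelets, measured 11.9 and 36.1 CPM in UNKC, 0.0579 and 0.282 CPM in H7 tumours and 4.63 and 3.82 CPM in normal pancreas, and its log2 difference between the tumours was -7.09 (SE 0.85, adjusted p = 0.00425). That call was lost without H7 replicate 1 (adjusted p = 0.0521), and the value lay between -8.63 and -6.07 without H7 replicate 2 or UNKC replicate 2. Reln, a secreted glycoprotein of lymphatic vessels and neurons, measured 10.1 and 26.1 CPM in UNKC, 0.927 and 1.00 CPM in H7 tumours and 2.78 and 0.954 CPM in normal pancreas (log2 -4.22 between the tumours, SE 0.53, adjusted p = 0.00472). Its call was lost without either H7 library (adjusted p = 0.0567 to 0.0798), and the value was -3.39 without UNKC replicate 2. In both genes the UNKC libraries were above all others. Foxc2, a valve transcription factor, went the other way and was the 1 listed marker that rose in H7 tumours against normal pancreas, at 4.03 and 3.59 CPM against 0.926 and 0 CPM (adjusted p = 0.0302). That call was lost without either H7 library (adjusted p = 0.0695 to 0.0832), with upper-quartile factors and with fragment counts. Ccl21a, the lymphatic chemokine, was at 0 in all 6 libraries. The 7 listed markers together summed to 50.2 and 99.2 CPM in UNKC, 29.2 and 29.0 CPM in H7 tumours and 33.8 and 19.1 CPM in normal pancreas, so the sum did not separate H7 from normal pancreas. Itga9, an integrin that passed no test, gave 22.8 and 21.9 CPM of the H7 sums and 21.3 and 12.4 CPM of the normal sums. In these groups the sum therefore mostly followed that gene. The larger Lyve1, Mmrn1 and Reln values in UNKC tumours came from replicate 2, the library with skeletal muscle markers, and the part of that tissue was not tested. These extra genes were chosen for display after their values were seen.

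**Figure D3:**
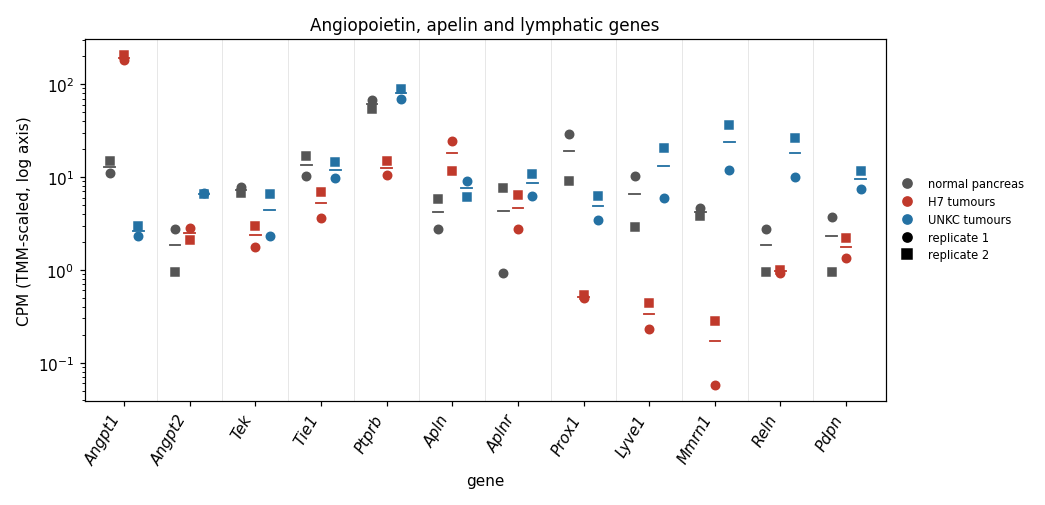
CPM on a log axis of angiopoietin, apelin and lymphatic genes in each library (circles replicate 1, squares replicate 2, dashes group means). Angpt1 runs from 2.29 CPM in a UNKC library to 205 CPM in an H7 library and Mmrn1 from 0.0579 CPM in an H7 library to 36.1 CPM in a UNKC library, and Prox1, Lyve1 and Mmrn1 lie lowest in the H7 libraries, with a sign against normal pancreas that total-count scaling keeps for all 3.

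The surface and secreted markers of blood vessel lining held 13 of the 40 genes. In H7 tumours 6 were lower than in normal pancreas and 0 higher (median log2 fold change -1.24), and in UNKC tumours 3 were lower and 0 higher (median -0.21). Of all tested genes 21.9% were lower and 29.6% higher in H7 and 19.3% lower and 29.1% higher in UNKC tumours, so the 3 falls of 13 in UNKC stand near that share. Directly between the tumours 1 was lower in H7 and 0 higher (median -0.60), where 11.1% and 7.14% of all genes were. With the DESeq2 test Pecam1, Egfl7, Vwf and Clec14a also passed as lower in H7 than in UNKC tumours (adjusted p = 0.0169 to 0.0319). By that test 2692 of 16306 genes were lower in H7. Pecam1, the junction protein CD31, measured 28.2 and 37.2 CPM in normal pancreas, 19.3 and 32.2 CPM in UNKC and 12.2 and 15.4 CPM in H7 tumours. H7 was below all other libraries, and UNKC and normal pancreas overlapped. Its log2 fold change in H7 against normal pancreas was -1.24 (SE 0.30, adjusted p = 0.0158), reversed by total-count scaling and lost without either H7 library or normal replicate 2 (adjusted p = 0.0573 to 0.11).

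Cdh5, the adhesion protein VE-cadherin, measured 20.4 and 27.8 CPM in UNKC tumours, 20.4 and 15.7 CPM in normal pancreas and 9.70 and 13.7 CPM in H7 tumours. H7 was below both other groups. Against normal pancreas Cdh5 did not pass in H7 tumours (adjusted p = 0.108). It passed there as lower with upper-quartile factors and the DESeq2 test (adjusted p = 0.027 to 0.039), and as higher under total-count scaling. It was 2.06-fold lower in H7 than in UNKC tumours (log2 -1.04, SE 0.25, adjusted p = 0.0394), a call lost without any 1 of the 4 tumour libraries (adjusted p = 0.0762 to 0.263) and when ribosomal RNA and Lars2 were left out of the totals. For Cdh5 the ratio of read to pair counts was 1.60 in H7 and 1.65 in UNKC tumours, below the library medians of 1.98 to 2.00, and reads shared with an overlapping feature cannot be separated because the strand is not stated.

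Egfl7, a secreted endothelial factor, measured 20.4 and 34.8 CPM in normal pancreas, 8.67 and 13.0 CPM in UNKC and 4.19 and 6.15 CPM in H7 tumours. Cd34, a sialomucin of vessels and progenitors, measured 26.4 and 32.9 CPM in normal pancreas, 12.2 and 15.6 CPM in UNKC and 7.24 and 12.1 CPM in H7 tumours. In both genes each tumour lay below normal pancreas without overlap. Egfl7 changed by -2.41 (SE 0.37, adjusted p = 0.0029) in H7 and -1.35 (SE 0.36, adjusted p = 0.0244) in UNKC tumours on the log2 scale, and total-count scaling reversed both. Cd34 changed by -1.62 (SE 0.31, adjusted p = 0.00624) and -1.09 (SE 0.30, adjusted p = 0.027), again reversed by total-count scaling. The UNKC calls were lost without normal replicate 2 or UNKC replicate 1 for Egfl7 (adjusted p = 0.12 to 0.125) and without these or UNKC replicate 2 for Cd34 (adjusted p = 0.0518 to 0.142).

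Nos3, the endothelial nitric oxide synthase, measured 6.02 and 13.4 CPM in normal pancreas, 1.56 and 3.20 CPM in UNKC and 1.78 and 2.30 CPM in H7 tumours. The tumours overlapped and both lay below normal pancreas. Its log2 fold change was -2.24 (SE 0.55, adjusted p = 0.0169) in H7 and -2.02 (SE 0.55, adjusted p = 0.025) in UNKC tumours, higher in both under total-count scaling. The H7 call was lost without either H7 library or normal replicate 2 (adjusted p = 0.0663 to 0.112), and the UNKC call without either H7 library, normal replicate 2 or UNKC replicate 1 (adjusted p = 0.0553 to 0.159).

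Vwf, the clotting glycoprotein of endothelium and platelets, measured 24.1 and 24.8 CPM in normal pancreas, 16.4 and 25.9 CPM in UNKC and 7.39 and 12.1 CPM in H7 tumours. UNKC spanned the normal values and H7 was below them. It was lower in H7 than in normal pancreas (log2 -1.33, SE 0.34, adjusted p = 0.0184) but higher under total-count scaling, and the call was lost without H7 replicate 1 or either normal library (adjusted p = 0.0589 to 0.0949). The 7 platelet markers summed to 15.7 and 17.2 CPM in normal pancreas and 6.10 to 8.46 CPM in the tumours, with 0 to 3 at 0 per library, and their part was not tested. Clec14a, a C-type lectin of vessel lining, measured 6.48 and 6.68 CPM in normal pancreas, 2.06 and 2.97 CPM in UNKC and 0.608 and 1.30 CPM in H7 tumours. No groups overlapped. Its log2 fold change in H7 tumours against normal pancreas was -2.78 (SE 0.55, adjusted p = 0.00711), reversed by total-count scaling and -3.40 without H7 replicate 2 (adjusted p = 0.0123). In UNKC tumours Clec14a did not pass (adjusted p = 0.0714), but passed as lower with DESeq2 size factors, upper-quartile factors, the DESeq2 test, the 4 libraries compared alone and fragment counts (adjusted p = 0.0108 to 0.0486). The other 6 markers (Esam, Emcn, Plvap, Icam2, Mmrn2, Gpihbp1) passed no test here and ranged from 0.695 to 16.7 CPM. With the DESeq2 test Esam passed as lower in H7 tumours against normal pancreas (adjusted p = 0.0463). Esam passed as lower in H7 and UNKC tumours against normal pancreas without normal replicate 1 (adjusted p = 0.0105 and 0.0247), and Mmrn2 as higher in UNKC without UNKC replicate 1 (adjusted p = 0.0461).

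Of the 5 endothelial transcription factors, 2 fell in H7 tumours against normal pancreas (Sox7 and Sox17), 0 were called in UNKC tumours, and Klf2 was lower in H7 than in UNKC tumours. Of all tested genes 21.9% were lower and 29.6% higher in H7 and 19.3% lower and 29.1% higher in UNKC tumours against normal pancreas. Between the tumours 11.1% of all genes were lower in H7. Klf2, which responds to laminar blood flow, measured 5.66 and 7.64 CPM in UNKC, 2.09 and 2.34 CPM in H7 tumours and 4.63 and 3.82 CPM in normal pancreas. The groups did not overlap. It was 3.0-fold lower in H7 than in UNKC tumours (log2 -1.59, SE 0.26, adjusted p = 0.0114), a call lost without either H7 library or UNKC replicate 2 (adjusted p = 0.0576 to 0.128). Against normal pancreas Klf2 did not pass in H7 tumours (adjusted p = 0.0707). It passed there as lower with DESeq2 size factors, upper-quartile factors and the DESeq2 test (adjusted p = 0.0223 to 0.045), and as higher under total-count scaling. Sox7, Sox17, Sox18 and Erg ranged from 0 to 5.73 CPM. Sox7 and Sox18 belong with Sox17 to the SOXF family, which drives arterial and lymphatic programmes, and Erg maintains endothelial identity. The Sox7 fall in H7 against normal pancreas (log2 -2.53, SE 0.76, adjusted p = 0.0336, higher under total-count scaling) was lost without either H7 library, either UNKC library or normal replicate 1 (adjusted p = 0.0595 to 0.556), and was -3.25 without normal replicate 2 (adjusted p = 0.00655). The Sox17 fall (log2 -3.70, SE 0.98, adjusted p = 0.0218) was lost without H7 replicate 1 or normal replicate 2 (adjusted p = 0.0765 to 0.218) and under total-count scaling, and was -4.51 without H7 replicate 2 (adjusted p = 0.0399). Sox7 also passed between the tumours without either normal library (adjusted p = 0.023 to 0.0245), and Sox17 in UNKC against normal pancreas without UNKC replicate 2 (adjusted p = 0.0431). Sox17 missed the threshold in UNKC tumours by little (adjusted p = 0.0585) and passed as lower there with DESeq2 size factors, upper-quartile factors and the DESeq2 test (adjusted p = 0.00504 to 0.0461). In the authors' deposited table Sox17 is lower in UNKC tumours too (log2 fold change -2.08, adjusted p = 0.0154).

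**Figure D4:**
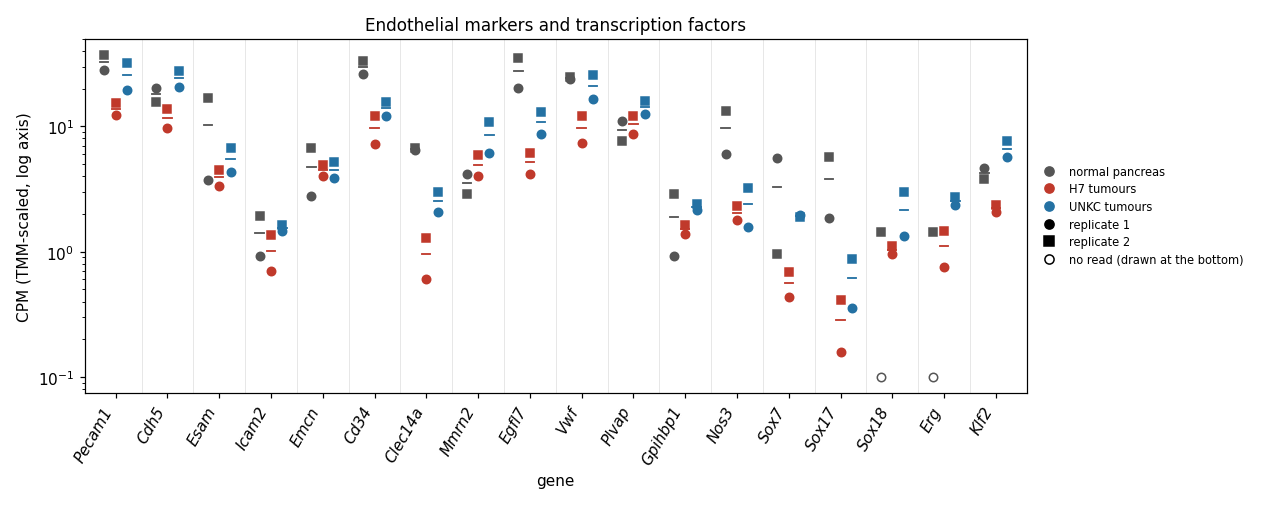
CPM on a log axis of the 13 surface and secreted markers and 5 transcription factors in each library (circles replicate 1, squares replicate 2, dashes group means, open circles at the bottom for no read). For Cd34, Egfl7, Clec14a and Nos3 the normal libraries stand above both tumours on the TMM scale, an order that total-count scaling reverses, and the normal libraries spread widely for low genes such as Sox7 and Esam.

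Among 6 further vascular ligands and receptors, Eng and Calcrl fell and Apln rose in H7 tumours against normal pancreas on the TMM scale, and 0 of 6 were called in UNKC tumours. The shares of all tested genes were 21.9% lower and 29.6% higher in H7, and 19.3% lower and 29.1% higher in UNKC tumours. Between the tumours 11.1% of all genes were lower in H7. Calcrl, the receptor that binds adrenomedullin together with RAMP2, measured 12.0 and 15.7 CPM in normal pancreas, 13.4 and 15.0 CPM in UNKC and 4.56 and 5.78 CPM in H7 tumours. UNKC lay within the normal range and H7 below it. Calcrl was 2.74-fold lower in H7 than in UNKC tumours (log2 -1.46, SE 0.22, adjusted p = 0.00784), lost without H7 replicate 1 (adjusted p = 0.102). Against normal pancreas the log2 value was -1.42 (SE 0.24, adjusted p = 0.00403), reversed by total-count scaling. Eng, the TGF-beta family co-receptor endoglin, measured 20.4 and 16.2 CPM in normal pancreas, 13.5 and 16.2 CPM in UNKC and 8.59 and 11 CPM in H7 tumours. H7 was the lowest group. Its log2 fold change against normal pancreas was -0.90 (SE 0.23, adjusted p = 0.0193), reversed by total-count scaling and lost without H7 replicate 1 or normal replicate 1 (adjusted p = 0.0643 to 0.129).

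Apln, the peptide apelin made by sprouting tip cells and by tumour cells, measured 24.5 and 11.6 CPM in H7, 9.14 and 6.11 CPM in UNKC tumours and 2.78 and 5.73 CPM in normal pancreas. The groups did not overlap. It was 4.26-fold higher in H7 tumours than in normal pancreas (log2 2.09, SE 0.55, adjusted p = 0.022), lost without H7 replicate 1 or normal replicate 1 (adjusted p = 0.0793 to 0.101) and 2.73 without normal replicate 2 (adjusted p = 0.0379). Its receptor Aplnr, the Notch ligand Dll4 and Ramp2 ranged from 0 to 10.8 CPM and passed no test.

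To follow the vessel genes relative to one another, each gene per kilobase was divided by the geometric mean of 8 core endothelial genes (Pecam1, Cdh5, Tie1, Erg, Esam, Egfl7, Mmrn2 and Clec14a) of the same library, with 1 read added to each gene and no test. The core summed to 38.4 and 55.3 CPM in H7, 73.0 and 111 CPM in UNKC tumours and 93.5 and 132 CPM in normal pancreas, but rested on only 202 and 277 reads in the normal libraries. Kdr stayed near the core in every library, at 1.66 and 1.56 in H7, 1.36 and 1.47 in UNKC tumours and 1.52 and 1.11 in normal pancreas. Flt1 did not, with 5.12 and 2.57 in UNKC, 1.46 and 0.988 in H7 tumours and 1.89 and 1.54 in normal pancreas. Ptprb was at 0.814 and 0.719 in H7 tumours, below the 2.57 and 2.22 of UNKC tumours and the 2.34 and 1.177 of normal pancreas. Nrp1 reached 59.6 and 37.9 times the core in H7 against 7.96 and 6.03 in UNKC tumours and 3.46 and 1.91 in normal pancreas.

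The ratios of 4 other members were compared with no test, and for the first 2 rest on few normal reads (6 and 14 for Emcn, 24 and 16 for Plvap). Emcn, a sialomucin of veins and capillaries that passed no test by CPM, was at 2.53 and 1.96 times the core in H7, 1.16 and 1.06 in UNKC tumours and 0.901 and 1.27 in normal pancreas. Plvap, which forms the diaphragms of fenestrated capillaries, was at 4.0 and 3.51 in H7, 2.76 and 2.34 in UNKC tumours and 2.33 and 1.05 in normal pancreas. For both genes the H7 libraries were above all others. Cd34 was highest in normal pancreas (4.16 and 3.31) and lowest in UNKC tumours (2.05 and 1.77), with H7 between them (2.56 and 2.69). Lyve1 was at 0.0872 and 0.100 in H7, against 1.01 and 2.32 in UNKC tumours and 1.66 and 0.333 in normal pancreas.

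Ratios between receptors and between ligands need no core. Flt1 over Kdr was 3.77 and 1.75 in UNKC tumours, 0.880 and 0.634 in H7 tumours and 1.24 and 1.38 in normal pancreas, with no overlap. Flt4 over Kdr was 0.918 and 1.08 in UNKC tumours, 0.273 and 0.232 in H7 tumours and 0.234 and 0.0572 in normal pancreas. Vegfc over Vegfa was 0.239 and 0.274 in UNKC against 0.0159 and 0.0395 in H7 tumours, and 0.00858 and 0.00408 in normal pancreas, where at most 2 Vegfc reads were counted. Vegfb over Vegfa was 0.239 and 0.366 in H7, 0.138 and 0.173 in UNKC tumours and 0.0294 and 0.0718 in normal pancreas, with no overlap. Pgf over Vegfa overlapped between all groups, from 0.0651 to 0.289.

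**Figure D5:**
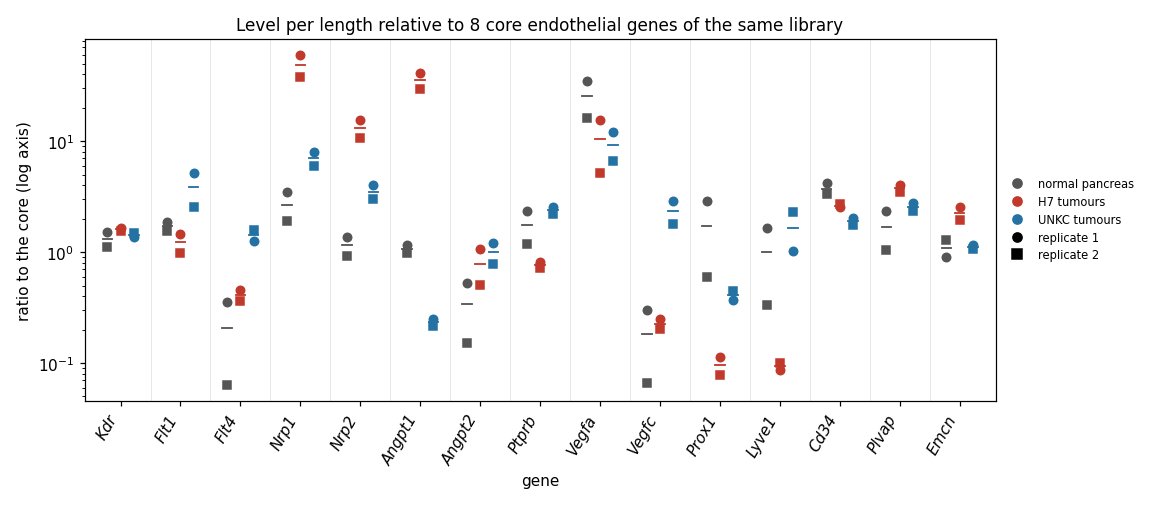
Level per kilobase of 15 genes divided by the geometric mean of 8 core endothelial genes of the same library, on a log axis (circles replicate 1, squares replicate 2, dashes group means). The ratio does not depend on scaling between libraries; Kdr lies between 1.11 and 1.66 in all 6 libraries, while Nrp1, Nrp2 and Angpt1 are highest in H7 libraries and Flt1 and Vegfc in UNKC libraries.

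Genes of the same pathways outside the 40 were counted by list, beside the share of all tested genes, which was 29.6% higher and 21.9% lower in H7 and 29.1% higher and 19.3% lower in UNKC tumours against normal pancreas, and 7.14% higher and 11.1% lower in H7 against UNKC tumours. Of 20 further endothelial genes, 3 were higher and 7 lower in H7 (median log2 fold change -1.29), and 5 higher and 2 lower in UNKC tumours (median -0.50), against normal pancreas. Ecscr, an endothelial surface regulator of migration, rose by 2.41 (SE 0.28, adjusted p = 0.000957) in H7 and 2.95 (SE 0.28, adjusted p = 0.000494) in UNKC tumours, whereas Ushbp1 fell by 4.43 (SE 0.52, adjusted p = 0.00106) and 3.48 (SE 0.50, adjusted p = 0.00231) on the log2 TMM scale. Under total-count scaling the Ushbp1 values did not pass, and the UNKC value was -4.19 without UNKC replicate 2. Between the tumours 0 were higher and 4 lower in H7, with Tspan7, a tetraspanin, at -4.26 (SE 0.20, adjusted p = 0.000392). Among 15 tip cell and Notch genes, 7 were higher and 2 lower in H7 and 8 higher and 1 lower in UNKC tumours, with Notch4, the endothelial Notch receptor, lower in both (log2 -1.66 and -1.42, adjusted p = 0.00307 and 0.00568) but higher in both under total-count scaling. Between the tumours 3 of the 15 were higher and 6 lower in H7, and Notch targets stood on both sides. The Notch target Hey1 was higher in H7 than in UNKC tumours by 4.19 (SE 0.53, adjusted p = 0.00252) and rested on 1 normal read pair in H7 against normal pancreas (log2 6.02, counting interval 3.54 to 11.3, adjusted p = 0.00119). The difference between the tumours was 4.89 without UNKC replicate 2. Hes1, another Notch target, was lower in H7 than in UNKC tumours by 2.45 on the log2 scale (SE 0.37, adjusted p = 0.00822), a call lost without either H7 library (adjusted p = 0.0697 to 0.136). Nrarp, a target and feedback inhibitor of Notch, was also lower in H7 (log2 -2.41, SE 0.27, adjusted p = 0.00554), again lost without either H7 library (adjusted p = 0.0575 to 0.0927). It was at least 6.88-fold higher in UNKC tumours than in normal pancreas, where no read was counted (floor of 3 read pairs over the group).

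Of 20 genes that carry the VEGF signal inside the cell, 9 were higher and 3 lower in H7 and 8 higher and 5 lower in UNKC tumours, where 29.6% and 29.1% of all genes were higher. Nfatc2, a calcium-regulated transcription factor that T cells also use, fell by 2.82 (SE 0.20, adjusted p = 0.000234) and 3.11 (SE 0.21, adjusted p = 0.000201) on the log2 TMM scale, with values of 0.46 and 0.25 under total-count scaling. Hspb1, a small heat shock protein on the p38 branch, was at least 7.67-fold higher in UNKC tumours than in normal pancreas, which had no read, and 4.63 lower on the log2 scale in H7 than in UNKC tumours (SE 0.47, adjusted p = 0.00448). The latter was lost without H7 replicate 1 (adjusted p = 0.0517) and was -5.28 without H7 replicate 2. Between the tumours, 4 of the 20 were higher and 4 lower in H7. Among 9 genes of oxygen sensing, 4 were higher in each tumour, with 1 lower in H7 and 2 lower in UNKC, and between the tumours 0 were higher and 1 lower in H7. The prolyl hydroxylase Egln3 rose by 2.74 (SE 0.62, adjusted p = 0.0115) in H7 and 4.70 (SE 0.60, adjusted p = 0.00142) in UNKC tumours, and the endothelial hypoxia factor Epas1 fell by 1.01 (SE 0.20, adjusted p = 0.0077) and 1.16 (SE 0.20, adjusted p = 0.00487), both reversed by total-count scaling and lost when ribosomal RNA and Lars2 were left out of the totals. The Egln3 call in H7 was lost without either normal library (adjusted p = 0.055 to 0.0589) and its value was 2.01 without H7 replicate 1, and the Epas1 call in H7 was lost without H7 replicate 1 (adjusted p = 0.0716).

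Of 12 angiogenesis inhibitors, 7 were higher and 1 lower in H7 (median log2 fold change 1.91, against 0.34 over all genes) and 11 higher and 0 lower in UNKC tumours (median 2.70, against 0.42), while between the tumours 2 were higher and 6 lower in H7. The share of all genes that was higher was 29.6% in H7 and 29.1% in UNKC tumours on the TMM scale, and 77.9% and 82.8% with total-count scaling. The 1 that was lower in H7, the semaphorin Sema3a (log2 -1.34, SE 0.43, adjusted p = 0.0409), was reversed by total-count scaling. It was lost when ribosomal RNA and Lars2 were left out of the totals, without the count filter, with the 4 libraries alone, and without either H7 library, either UNKC library or normal replicate 2 (adjusted p = 0.0516 to 0.239 over the libraries). Thbs2, a matrix thrombospondin, measured 582 and 554 CPM in H7, 79.6 and 180.4 CPM in UNKC tumours and 6.48 and 3.82 CPM in normal pancreas, with no overlap (log2 6.78 and 4.65, SE 0.53 and 0.50, adjusted p = 0.000289 and 0.000828). The UNKC value was 3.97 without UNKC replicate 2. Its relative Thbs1 measured 1236 and 1075 CPM in H7, 152 and 227 CPM in UNKC tumours and 47.7 and 32.4 CPM in normal pancreas, and was higher in H7 than in UNKC tumours by 2.61 (SE 0.27, adjusted p = 0.00271). Fibroblast markers, whose cells also make thrombospondins, summed to 753 and 1643 CPM in H7, 2477 and 4122 CPM in UNKC tumours and 350 and 537 CPM in normal pancreas. Of these 8 markers 4 were higher and 0 lower in each tumour against normal pancreas. Between the tumours 2 were higher and 0 lower in H7, although the sums were larger in UNKC tumours. The part of these markers was not tested. In the BMP9 and ALK1 pathway 7 of 10 were higher in H7 and 8 of 10 in UNKC tumours, with 0 lower, and between the tumours 1 was higher (Bmp4) and 2 lower in H7 (Id1 and Smad7). Bmp4, a growth factor of that family, measured 192 and 171 CPM in H7, 5.57 and 6.32 CPM in UNKC tumours and 2.78 and 1.91 CPM in normal pancreas, and was higher in H7 than in UNKC tumours by 4.93 (SE 0.18, adjusted p = 0.000214). Id1, a target of BMP signals, was lower in H7 than in UNKC tumours (log2 -1.60, SE 0.21, adjusted p = 0.00566), lost without either H7 library or UNKC replicate 1 (adjusted p = 0.0531 to 0.0726). Smad7, an inhibitory SMAD, was lower as well (log2 -0.86, SE 0.17, adjusted p = 0.0203), lost without any 1 of the 4 tumour libraries (adjusted p = 0.0888 to 0.151).

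Lists of vessel type are read against the same shares of all genes, 29.6% and 29.1% higher and 21.9% and 19.3% lower. The name of a list does not give the cells that made the RNA in bulk tissue, which were not tested. Of 8 genes in the list named arterial, not all of which are markers of arterial endothelium, 4 were higher in H7 (Efnb2, Vegfd, Mgp and Ltbp4). In UNKC tumours 3 were higher (Efnb2, Mgp and Ltbp4), and 0 were lower in either tumour. The others, Gja4, Gja5, Bmx and Sema3g, passed no test. Efnb2, the arterial ephrin, rose in UNKC tumours by 3.84 on the log2 scale (SE 0.31, adjusted p = 0.000322), and by 4.6 without normal replicate 2. Vegfd, a second ligand of FLT4 that stood in that list, measured 18.9 and 14.2 CPM in H7, 1.09 and 1.29 CPM in UNKC tumours and 1.85 and 1.91 CPM in normal pancreas. Its 2 H7 libraries were above all others, the reverse of Vegfc, and the log2 difference between the tumours was 3.80 (SE 0.25, adjusted p = 0.00083). Of 8 venous and inflamed endothelium genes 4 were higher in H7 (Ephb4, Nr2f2, Icam1 and Vcam1) and 3 in UNKC tumours (Ephb4, Icam1 and Vcam1), with 0 lower. The others, Ackr1, Selp, Sele and Madcam1, did not pass against normal pancreas. Between the tumours 1 of the 8 was higher in H7 (Nr2f2) and 2 lower (Ephb4 and Selp), where 7.14% and 11.1% of all genes were. Selp differed by -3.20 on the log2 scale (SE 0.77, adjusted p = 0.0378). That call was lost without any 1 of the 4 tumour libraries (adjusted p = 0.0748 to 0.253) and under total-count scaling. The adhesion molecule Vcam1 rose by 4.71 (SE 0.28, adjusted p = 0.000168) and 4.77 (SE 0.28, adjusted p = 0.00017). It measured 240 and 191 CPM in H7 tumours, where Pecam1 measured 12.2 and 15.4 CPM. Of 5 capillary genes tested 1 was higher and 2 lower in each tumour. Aqp1, a water channel, rose by 1.79 (SE 0.23, adjusted p = 0.0014) in H7 and 3.45 (SE 0.23, adjusted p = 0.000206) in UNKC tumours, and Fabp4, a fatty acid carrier of capillaries and fat cells, fell by 5.14 (SE 0.58, adjusted p = 0.00091) in H7 and by 4.42 without normal replicate 2. The 8 adipocyte markers moved with it, at 118 and 272 CPM in normal pancreas and 4.16 to 27.3 CPM in the tumours, and 8 of 8 were lower in each tumour. Their part was not tested.

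In the authors' deposited tables, which used DESeq2 on fragment counts, 3 of the 39 listed genes were higher and 19 lower in H7 tumours at an adjusted p under 0.05, and 5 were higher and 9 lower in UNKC tumours. The share of all genes called in the authors' tables was not counted, so these counts cannot be set against other genes. Kdr, which missed the threshold here, was lower in H7 tumours in the authors' deposited table (log2 fold change -0.86, adjusted p = 0.0378).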

How the data were processed

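RNA of 6 mouse samples was sequenced and analysed from the deposited values. Reads were aligned with STAR to mm10 (GRCm38) and counted per gene with featureCounts, per the submitters' processing notes, and the deposited files hold raw whole-number counts per gene ID. The authors' 2 comparison tables add fragment counts, TPM that the authors computed from gene length (not used here), the authors' log2 fold changes from DESeq2 1.18.1 and the authors' p-values. The strand was not given in the sources used here. The median gene had 1.98 to 2.00 read counts per fragment count, by library.

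Counts of all 6 libraries were fitted together with edgeR 4.0.16 (R 4.3.3, quasi-likelihood, legacy = FALSE) after filterByExpr and TMM (factors 2.07 to 2.23 in tumours, 0.179 and 0.256 in normal pancreas). Every adjusted p is from this fit, with the Benjamini-Hochberg correction over 16306 genes and a threshold of 0.05, unless another setting or the authors' table is named. DESeq2 1.42.0 was an alternative. Tables were joined with pandas 2.3.3 in Python 3.11.15, intervals came from SciPy 1.17.1, matplotlib 3.10.9 drew the figures, and the pipeline was tested on simulated data. Floors are 3 read pairs over a group (1.41 CPM in normal pancreas), and intervals (95%, exact binomial on pairs) and floors cover counting error only. Promoters of chromosome 18 were left out of the motif counts, and coordinates are those of RefSeq GRCm38.p6.

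Each library's value is printed for genes past the threshold in at least 1 comparison with 5 or more CPM in the highest group; other members are given by range, and other lists by counts and at most 1 rise and 1 fall per comparison, not all of which are named. The members, lists and rules were chosen with earlier results of these data known. Kdr, the lymphatic genes beyond the list counts, the values in every library of Thbs1, Thbs2, Bmp4 and Vegfd, the differences of Nrarp and Smad7 between the tumours, the pericyte sum without Des, the added read in ratios and the ratios over Kdr were chosen after values were seen. No label says that a replicate number is shared between groups for a reason. The 17 other settings chosen at the outset and 1 added after seeing the data cover scaling, filter, test, counts used, a replicate block and libraries left out.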

Additional observations from a re-analysis of the deposited data

Results flagged for a closer look

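For 13 genes the effect of tumour against normal pancreas differed between H7 and UNKC tumours by the direct test of one tumour against the other in edgeR, which leaves the shared normal libraries out of the contrast. As log2 differences of H7 minus UNKC, 3 were positive: Angpt1 at 6.20 (adjusted p = 0.000223), Nrp1 at 1.75 (0.00129) and Nrp2 at 0.88 (0.00696). Of the 10 negative ones, the VEGF-C axis and lymphatic genes were Vegfc at -4.38 (adjusted p = 0.00144), Flt4 at -2.88 (0.0106), Lyve1 at -5.28 (0.0093) and Prox1 at -3.22 (0.0144). The others were Flt1 at -2.63 (adjusted p = 0.00136), Ptprb at -2.66 (0.00195), Klf2 at -1.59 (0.0114), Calcrl at -1.46 (0.00784), Angpt2 at -1.43 (0.0278) and Cdh5 at -1.04 (0.0394). In each of the 13 both H7 libraries lay on one side of both UNKC libraries. That adds no support, because the test that picked them used the same libraries. Most members that were not called, such as Pecam1, Kdr, Tie1, Vwf and Cd34, were separated in the same way. The share of all genes separated in that way was not counted. Skeletal muscle markers were high in 1 library of each tumour, and their part in these differences was not tested.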

How the results depend on the processing

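Scaling to total counts gave 30 higher and 1 lower in H7 and 37 higher and 0 lower in UNKC tumours against normal pancreas. Totals without ribosomal RNA and Lars2 gave 12 higher and 2 lower in UNKC tumours, whereas totals that also left out 1 gene without a symbol, a setting added after seeing the data, gave 6 higher and 7 lower there and 4 higher and 16 lower in H7. Over all tested genes, 57.5% (H7) and 60.1% (UNKC) of the calls against normal pancreas were higher, against 46.1% and 48.3% with upper-quartile factors, 73.8% and 76.8% without ribosomal RNA and Lars2, and 96.0% and 97.7% with total counts. Between the tumours 10 genes were lower in H7, against 16 with the DESeq2 test and 17 with the replicate block; over all genes 1817 were lower, against 2692 and 2037. The DESeq2 test added Pecam1, Clec14a, Sox7, Egfl7, Tie1 and Vwf as lower and Apln as higher in H7. The cause was not tested. Among the called genes and Kdr, log2 fold changes that total counts reversed in H7 against normal pancreas were Pecam1 2.02, Kdr 2.47, Flt1 1.59, Tie1 1.90, Eng 2.41, Egfl7 0.82, Vwf 1.96, Cd34 1.65, Sox7 0.84, Calcrl 1.85, Nos3 0.99, Clec14a 0.52, Vegfa 0.79, Pgf 0.34 and Ptprb 1.05. In UNKC tumours they were Egfl7 1.96, Cd34 2.24, Prox1 1.499, Nos3 1.28, Angpt1 1.04, Vegfa 1.82 and Pgf 1.29. Leaving out 1 library gave 3 to 4 higher and 9 to 16 lower in H7 and 5 to 6 higher and 2 to 6 lower in UNKC tumours against normal pancreas, and 2 to 3 higher and 3 to 12 lower in H7 against UNKC; the fewest were 9 and 3 without H7 replicate 1 and 2 without UNKC replicate 1. A group left with 1 library is assumed to vary like the others. Calls over all tested genes also changed with the library left out, and between the tumours they too were fewest without H7 replicate 1. Leaving out both tumour libraries with skeletal muscle markers left 1 library per tumour and 1 residual degree of freedom. No gene, member or not, passed there with edgeR in any comparison, and DESeq2 was not run there. The replicate block gave 4 higher and 18 lower in H7 and 6 higher and 9 lower in UNKC tumours against normal pancreas. It added Kdr and Tek and ended Sox7 in H7 against normal pancreas (adjusted p = 0.0211, 0.0394 and 0.0521), added Sox17 and Clec14a in UNKC tumours, and between the tumours added Kdr (0.0295), Vegfa (0.0182), Pecam1, Clec14a, Egfl7, Tie1 and Vwf. Same-numbered libraries shared deviations between the tumours (r = 0.526 over genes) but not with normal pancreas (r = -0.01 and -0.02), and the labels give the numbers no meaning, so no pairing was used. The authors' fragment counts come from separate tables and gave no value between the tumours. Depth limits low genes of normal pancreas, where 1 read was worth 0.463 and 0.477 CPM.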
